A study of Rattus norvegicus with 6 samples.

Results

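The genes of the insulin-like growth factor (IGF) axis described here are the ligands Igf1 and Igf2, the receptors Igf1r and Igf2r, and the binding proteins Igfbp2, Igfbp3, Igfbp4, Igfbp5, Igfbp6 and Igfbp7. They were taken by symbol from a deposited table of 40154 rat genes, in which 10 of 10 were found. The cells were primary atrial fibroblasts of Sprague-Dawley rats aged 1 to 3 days, whose minced hearts went into 0.25% trypsin together according to the labels, and the non-myocytes that adhered during a 1.5 h preplating step were cultured in 10% fetal bovine serum. They were transfected either with a control siRNA that has no target (si-NC, 3 libraries) or with siRNA against Gpd1l, which encodes glycerol-3-phosphate dehydrogenase 1-like (si-GPD1L, 3 libraries), and were sequenced after 24 h as polyA RNA. Both groups carry the same tag, atrial differentiation, in the labels, which do not explain it. The labels do not say whether the libraries came from separate cultures, so the p-values measure the spread between these libraries, which may be technical, and they do not say whether the digit in the si-GPD1L names marks replicates or different siRNAs. The comparison asked which transcripts of the IGF axis differed when Gpd1l was targeted in fibroblasts.

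Igf1 and Igf2 are secreted growth factors that act through the receptor tyrosine kinase Igf1r, whereas Igf2r, the mannose 6-phosphate receptor, takes up Igf2 for breakdown in lysosomes. The IGF-binding proteins hold the ligands outside the cell, prolong their life and limit or direct their access to Igf1r, and proteases release the ligand by cutting them. In the heart, fibroblasts are a source of Igf1 and of several binding proteins, and the binding proteins also attach to matrix and cell surfaces.

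The library totals ran from 16892255 to 20149732 counted reads, and the members together took 0.306% to 0.389% of them. Gpd1l had 265, 314 and 321 counts in si-NC and 202, 229 and 303 in si-GPD1L (log2 fold change -0.31, adjusted p = 0.234), so the library labelled si-GPD1L replicate 3 lay inside the si-NC range, and si-GPD1L names the label of a library here. The fibroblast label was checked against 12 markers, all of which were tested, with Col1a1 at the head of every library's counts. Markers of other cells were present as well, with summed cardiomyocyte markers at 1922 to 2060 CPM (counts scaled to a common library total) for si-NC and 1725 to 1869 for si-GPD1L. The 13 listed interferon-stimulated genes were higher in si-GPD1L, with summed levels of 170.0 to 192 CPM for si-NC and 1439 to 1758 for si-GPD1L.

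In si-GPD1L, 5 of the 10 genes were lower and none was higher at an adjusted p under 0.05 (edgeR's quasi-likelihood test with Benjamini-Hochberg adjustment over 14852 genes, all 10 among them). The genes that fell were Igf1, Igfbp3, Igfbp4, Igfbp5 and Igfbp6, so that 1 of the ligands and 4 of the 6 binding proteins fell while neither receptor was called. Of all genes tested, 2.33% were called lower, 4.03% higher and 6.36% in either direction. The median log2 fold change was -0.33 over the members and -0.52 over the binding proteins, beside -0.0049 over all genes tested. Only Igfbp5 also passed the fold threshold, an absolute log2 fold change over 1, which together with the adjusted p was met downward by 0.135% of all genes tested. Earlier results of these data had already put Igfbp5 past both thresholds, so that share gives no independent support. In bulk RNA, fewer cells of a type and less RNA per cell cannot be told apart.

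**Figure D1:**
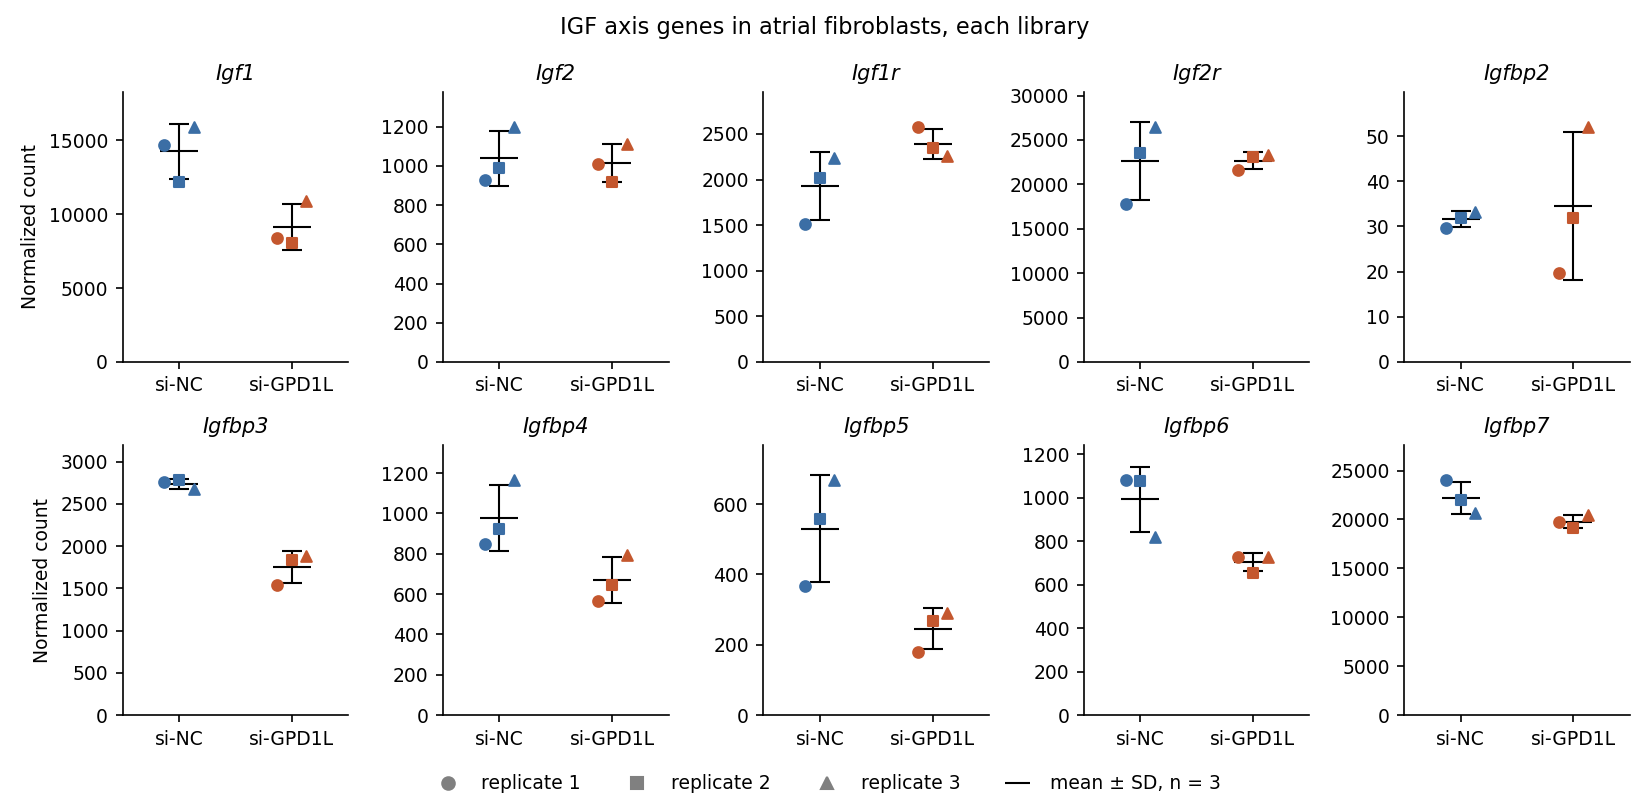
Normalized counts (TMM, scaled to the mean library size) of the 10 IGF axis genes, with 1 point per library, its shape giving the replicate number, and black bars for mean ± SD of 3 libraries. The y axes are linear from 0 and differ between genes, and the si-GPD1L points of Igf1, Igfbp3, Igfbp4, Igfbp5, Igfbp6 and Igfbp7 all lie below the si-NC points.

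**Figure D2:**
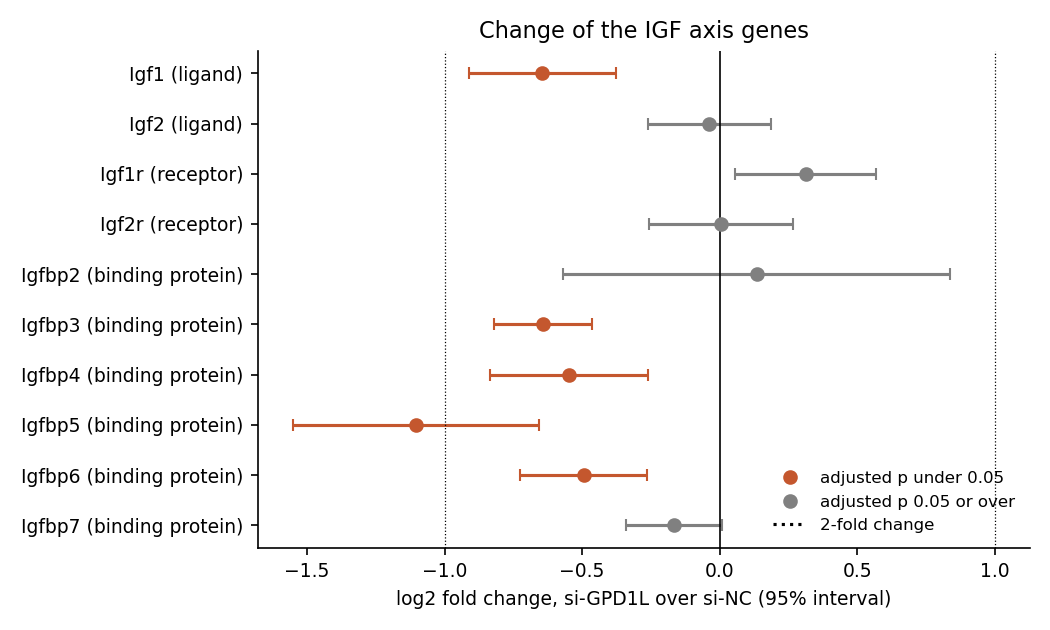
Log2 fold change of each IGF axis gene in si-GPD1L over si-NC with its 95% interval from edgeR's quasi-likelihood fit, colored where the adjusted p was under 0.05, with dotted lines at a 2-fold change. Igfbp5, at -1.10, is the one gene beyond a dotted line, and the intervals of the 5 colored genes do not reach 0.

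The promoters of 3 binding proteins are given as examples. Igfbp5 fell furthest, Igfbp4 fell and holds the only match found to the TATA box letters TATAAA, and Igfbp7 was the most abundant and was not called. Each sequence is the 250 bases before the annotated start in RefSeq (build GRCr8, while the gene positions given with the results are those of the deposited table, whose build is rn6 in the submitters' processing notes), written 5′ to 3′ on the strand of the gene with motif matches in capitals.
Igfbp5: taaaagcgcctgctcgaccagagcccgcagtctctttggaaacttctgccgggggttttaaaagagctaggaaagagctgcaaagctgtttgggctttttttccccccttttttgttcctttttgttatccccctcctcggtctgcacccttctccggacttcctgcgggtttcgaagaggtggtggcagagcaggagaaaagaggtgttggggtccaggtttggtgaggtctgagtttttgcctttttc
Igfbp4: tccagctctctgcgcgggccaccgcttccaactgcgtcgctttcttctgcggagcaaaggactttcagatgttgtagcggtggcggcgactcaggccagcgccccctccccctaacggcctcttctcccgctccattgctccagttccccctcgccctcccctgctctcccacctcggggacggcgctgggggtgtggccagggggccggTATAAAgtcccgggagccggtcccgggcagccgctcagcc
Igfbp7: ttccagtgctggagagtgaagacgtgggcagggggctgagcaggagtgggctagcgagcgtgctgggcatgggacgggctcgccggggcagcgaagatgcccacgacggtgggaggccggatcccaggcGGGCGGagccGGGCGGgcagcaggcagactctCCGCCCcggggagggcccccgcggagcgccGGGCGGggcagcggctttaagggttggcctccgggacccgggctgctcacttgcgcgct
These are chr9:81914188-81914437 on the minus strand, chr10:84491221-84491470 on the plus strand and chr14:31091486-31091735 on the plus strand. Motifs were searched on both strands in the promoters of all 10 members and in 33469 rat promoters of the same length. The Igfbp4 promoter holds TATAAA, the letters searched for the TATA box, with its first base 40 bases before the start. The letters were found in 12.9% of all promoters and in no other member, and other forms of the box were not searched. The Igfbp7 promoter holds the GC box GGGCGG 4 times, with the nearest at 59 bases before the start and the one at 89 bases on the opposite strand. The same box was found in Igf1r, Igf2r and Igfbp2 and in 30.5% of all promoters. That is 4 of the 5 members that were not called and none of the 5 that fell. This split was made after the calls were known and was not tested, and a member that was not called is not thereby unchanged. The letters CCAAT (34.0% of all promoters), GAAA with any 2 bases and a further GAAA behind it, the core of the interferon-stimulated response element (3.41%), and TGANTCA, the AP-1 site (6.34%), were in none of the 10. The Igfbp5 promoter held none of the 5 motifs, and 51.6% of its bases were G or C, near the median of 51.2% over all promoters, while the members ran from 46.8% in Igf1 to 79.6% in Igf1r.

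Of the ligands, Igf1 fell and Igf2 did not pass the test. Igf1 (NCBI gene 24482, chromosome 7, 28412123 to 28491815, plus strand), the main IGF of postnatal tissue, had normalized counts of 14673, 12186 and 15883 in si-NC and of 8377, 8074 and 10895 in si-GPD1L. Each si-GPD1L library was below each si-NC library, and the groups did not overlap. The mean was 14247 ± 1885 in si-NC and 9115 ± 1548 in si-GPD1L (SD, n = 3 in each), 64.0% of the si-NC level with a 95% interval of 53.2% to 77.0%. The log2 fold change was -0.64 (standard error 0.12, adjusted p = 0.00841). Of all genes tested, 1.83% had one as low or lower. The call was lost when si-GPD1L replicate 1 (log2 fold change -0.59, adjusted p = 0.0703) or replicate 2 (-0.57, adjusted p = 0.0786) was left out.

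Igf2 (NCBI gene 24483, chromosome 1, 215828102 to 215839081, minus strand), an imprinted growth factor of fetal life, had 928, 990.4 and 1198 normalized counts in si-NC and 1009, 919 and 1112 in si-GPD1L. The groups overlapped, and the means were 1039 ± 141 and 1013 ± 96.7 (SD, n = 3 in each). Its log2 fold change was -0.037 with a 95% interval of -0.26 to 0.19 (adjusted p = 0.872), and the sign changed between normalizations, since the ratio of mean TPM was 0.042 on the log2 scale. TPM is the count per base of gene length scaled to a common sum per library. On that scale Igf1 stood 10.3 ± 1.35 times above Igf2 in si-NC and 6.66 ± 0.565 times in si-GPD1L (SD, n = 3 in each).

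For the receptors, neither gene was called. Igf1r (NCBI gene 25718, chromosome 1, 128924921 to 129213816, plus strand), the signaling receptor of both ligands, had 1517, 2020.0 and 2240.3 normalized counts in si-NC and 2574, 2347 and 2257 in si-GPD1L. The lowest si-GPD1L library was just above the highest si-NC library, so the groups did not overlap. The mean was 1926 ± 371 in si-NC and 2393 ± 163 in si-GPD1L (SD, n = 3 in each), a log2 fold change of 0.31 with a 95% interval of 0.058 to 0.57 (unadjusted p = 0.0203, adjusted p = 0.138). The adjusted p was 0.0311 without si-NC replicate 3 (log2 fold change 0.44) and 0.00505 with no filter beyond 1 count.

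Igf2r (NCBI gene 25151, chromosome 1, 48176095 to 48264482, plus strand) had 17782, 23541 and 26435 normalized counts in si-NC and 21563, 23126 and 23345 in si-GPD1L. The si-GPD1L libraries all lay inside the si-NC range. The means were 22586 ± 4405 and 22678 ± 972 (SD, n = 3 in each), and the log2 fold change was 0.0059 with a 95% interval of -0.26 to 0.27 (adjusted p = 0.986), of which upper-quartile normalization turned the sign (-0.018). The TPM of Igf2r was 15.3 ± 0.0949 times that of Igf1r in si-NC and 12.4 ± 1.33 times in si-GPD1L (SD, n = 3 in each), and the 3 si-NC ratios of 15.3, 15.2 and 15.4 were all above the si-GPD1L ratios of 10.9, 12.8 and 13.5. Igf1r and Igf2r thus varied together among the si-NC libraries, with replicate 1 lowest and replicate 3 highest for both.

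Among the binding proteins, Igfbp5 (NCBI gene 25285, chromosome 9, 80154230 to 80166813, minus strand), which binds to extracellular matrix as well as to the ligands, fell furthest. It had 371, 526 and 683 counts in si-NC and 164, 295 and 290 in si-GPD1L, which are 367, 557 and 667 against 179, 268 and 289.8 normalized counts. The highest si-GPD1L library was below the lowest si-NC library, although the libraries of each group varied more than for any other called member. The mean was 531 ± 152 in si-NC and 246 ± 58.8 in si-GPD1L (SD, n = 3 in each), 46.5% of the si-NC level with a 95% interval of 34.1% to 63.4%. The log2 fold change was -1.10 (standard error 0.21, 95% interval -1.55 to -0.66, adjusted p = 0.00724), and 0.303% of all genes tested had one as low or lower. An exact two-sided permutation test of its log2 normalized counts gave p = 0.10, the smallest that 3 libraries against 3 allow. The adjusted p stayed under 0.05 in the 13 alternatives that could change it, with 0.0410 as the highest. Its size was under the fold threshold when si-NC replicate 3 (-0.90) or si-GPD1L replicate 1 (-0.93) was left out, and was -1.31 without si-NC replicate 1.

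Igfbp3 (NCBI gene 24484, chromosome 14, 87457647 to 87465374, minus strand), the main carrier of IGFs in blood, had the smallest adjusted p of the members. Its normalized counts were 2758, 2778 and 2675 in si-NC and 1540.1, 1834 and 1883 in si-GPD1L, and the groups stood well apart. The mean was 2737 ± 54.8 in si-NC and 1752 ± 185 in si-GPD1L (SD, n = 3 in each), 64.0% of the si-NC level with a 95% interval of 56.6% to 72.4%. The log2 fold change was -0.64 (standard error 0.082, adjusted p = 0.000353). The call held in each of the 13 alternatives run for it. Igfbp3 thus fell by about as much as Igf1, with closer replicates in si-NC.

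Igfbp4 (NCBI gene 360622, chromosome 10, 86950555 to 86962563, plus strand), which holds IGFs away from their receptor until it is cut, had 848, 923 and 1164 normalized counts in si-NC and 566, 647 and 792 in si-GPD1L. The groups did not overlap in normalized counts but did in TPM, where si-NC replicate 1 (47.4) was below si-GPD1L replicate 3 (49.7). The mean was 978 ± 165 in si-NC and 669 ± 115 in si-GPD1L (SD, n = 3 in each), a log2 fold change of -0.55 (standard error 0.13, 95% interval -0.84 to -0.26, adjusted p = 0.0299). The adjusted p was 0.0636 without si-NC replicate 2, 0.0544 without si-NC replicate 3, and 0.157 and 0.152 when si-GPD1L replicates 1 and 2 were left out.

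Igfbp6 (NCBI gene 25641, chromosome 7, 143749385 to 143754018, plus strand), which binds Igf2 in preference to Igf1, had 1079.8, 1079 and 819 normalized counts in si-NC and 729, 656 and 728 in si-GPD1L. The groups did not overlap, with si-NC replicate 3 closest to the si-GPD1L libraries. The mean was 993 ± 151 in si-NC and 705 ± 42.0 in si-GPD1L (SD, n = 3 in each), a log2 fold change of -0.49 (standard error 0.11, 95% interval -0.73 to -0.26, adjusted p = 0.0165). The adjusted p was 0.0767 without si-NC replicate 2, and 0.0668, 0.118 and 0.0527 without si-GPD1L replicates 1, 2 and 3.

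**Figure D3:**
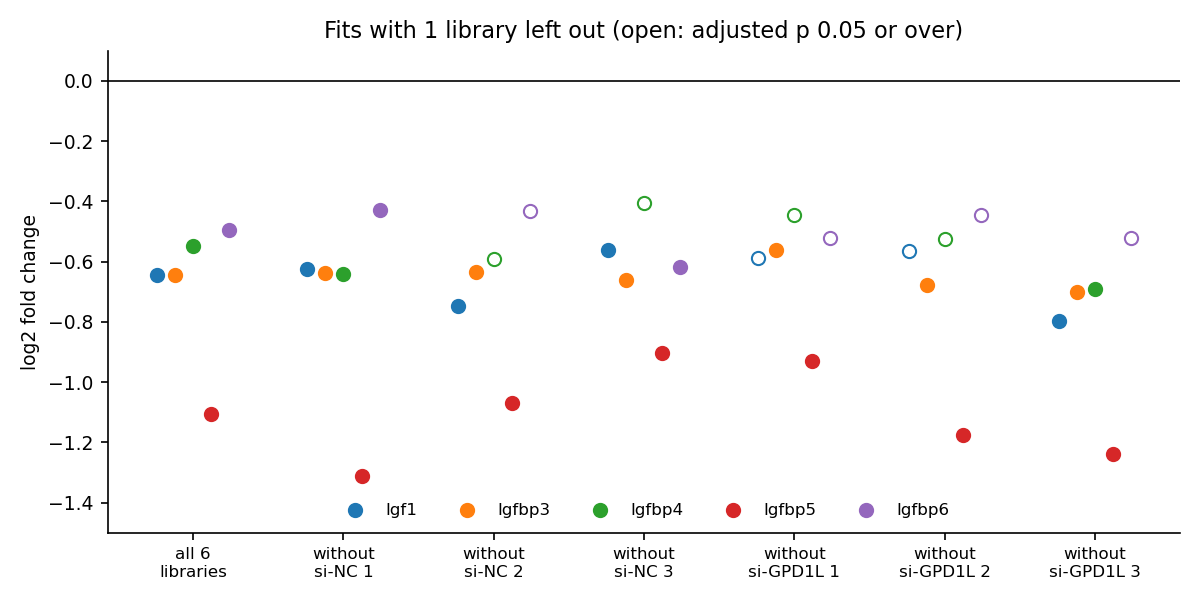
Log2 fold changes of the 5 called IGF axis genes with all 6 libraries and with each library left out in turn, where open circles mark an adjusted p of 0.05 or over. All points lie below 0, and the points of Igfbp3 and Igfbp5 are filled in every fit, while Igf1 has 2 open circles and Igfbp4 and Igfbp6 have 4 each.

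Igfbp7 and Igfbp2 were not called. Igfbp7 (NCBI gene 289560, chromosome 14, 33010300 to 33070193, plus strand), a matrix protein that binds IGFs with low affinity, had 23990.1, 21952 and 20655 normalized counts in si-NC and 19794, 19118 and 20426 in si-GPD1L. The si-GPD1L libraries lay just under the si-NC range in normalized counts, but the groups overlapped in TPM (2474 to 2624 for si-NC, 2355 to 2508 for si-GPD1L). Its log2 fold change was -0.17 with a 95% interval of -0.34 to 0.0074 (adjusted p = 0.244). Igfbp2 (NCBI gene 25662, chromosome 9, 80118029 to 80144804, plus strand), whose gene ends 9425 bases before that of Igfbp5, was the lowest member with 30, 30 and 34 counts in si-NC and 18, 35 and 52 in si-GPD1L. The si-GPD1L counts spanned the si-NC counts on both sides, and the log2 fold change of 0.13 had a 95% interval of -0.57 to 0.84 (adjusted p = 0.850), which includes the -0.55 of Igfbp4.

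In normalized counts, the groups did not overlap for 6 members that were lower in si-GPD1L, where 13.9% of all genes tested had that pattern, and for Igf1r, which was higher. Without regard to direction, 29% of all genes tested did not overlap. On the TPM scale 4 members were lower without overlap (Igf1, Igfbp3, Igfbp5 and Igfbp6) and 1 was higher (Igf1r). The shares of all genes given here are for normalized counts, and none was computed for TPM, so the TPM numbers have no background beside them. The log2 ratio of si-GPD1L over si-NC was 0.083 higher in TPM than in normalized counts at the median of 14831 genes. The spans of other genes, introns included, overlap those of Igf2, Igf2r, Igfbp6 and Igfbp7. Whether the counting used strand is not given in the sources used here. Reads of these 4 members could have been assigned elsewhere if exons overlap as well.

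Levels between genes were compared in TPM. Igfbp7 was the most abundant IGF axis transcript in si-NC, at 2563 ± 78.4 TPM, which was 7.76 times the level of Igf2r at 330.1 ± 78.3 TPM. Igf1 followed at 246 ± 35.2, Igfbp3 at 146 ± 6.17, Igfbp6 at 146 ± 19, Igfbp4 at 58.1 ± 12.1 and Igfbp5 at 42.1 ± 13.7 TPM (SD, n = 3). Igf2 at 24.2 ± 4.26, Igf1r at 21.6 ± 5.07 and Igfbp2 at 3.12 ± 0.319 TPM (SD, n = 3) were the lowest. The ranges of neighbours overlapped between Igf2r and Igf1, Igfbp3 and Igfbp6, Igfbp4 and Igfbp5, Igfbp5 and Igf2, and Igf2 and Igf1r, so these pairs are not ordered beyond their spread. In si-GPD1L, Igfbp5 at 20.5 ± 4.99 TPM came after Igf1r at 28.3 ± 1.78 and Igf2 at 24.9 ± 2.36 (SD, n = 3), and its range overlapped that of Igf2 but not that of Igf1r.

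**Figure D4:**
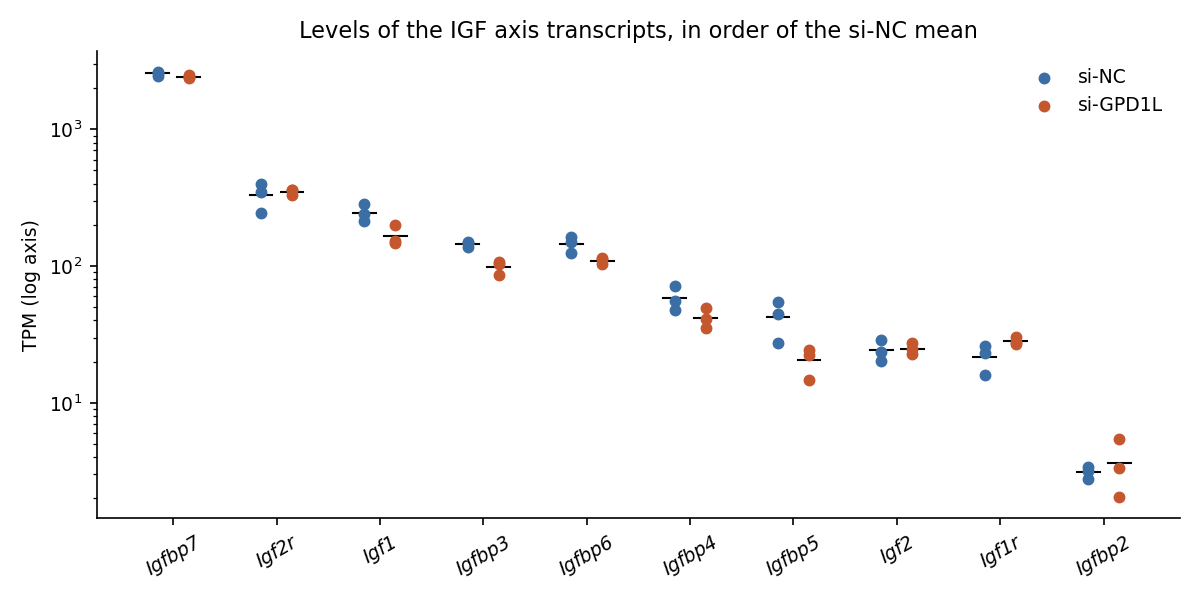
TPM of the 10 IGF axis genes on a log axis, ordered by the si-NC mean, with 1 point per library and a black line at each group mean (n = 3). Igfbp7 lies between 2355 and 2624 TPM, far above the others, Igfbp2 lies between 2.04 and 5.44 TPM, and the Igfbp5 points of si-GPD1L reach into the range of Igf2.

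The 6 binding proteins summed to 2957 ± 71.1 TPM in si-NC and 2699 ± 95.4 in si-GPD1L (SD, n = 3 in each), and most of this was Igfbp7, which made up 86.6% ± 0.950 in si-NC and 89.8% ± 0.643 in si-GPD1L. Without Igfbp7, the other binding proteins summed to 367, 416 and 401 TPM in si-NC but 251, 273 and 299 in si-GPD1L, and the groups did not overlap. Igfbp5 took 1.43% ± 0.490 of the summed TPM of the 6 in si-NC and 0.757% ± 0.174 in si-GPD1L (SD, n = 3 in each), with 0.912% as the lowest si-NC library and 0.861% as the highest of si-GPD1L. The difference of -0.67 percentage points was -0.44 without si-NC replicate 3. Of the binding proteins without Igfbp7, Igfbp5 took 10.6% ± 3.05 in si-NC and 7.39% ± 1.30 in si-GPD1L (SD, n = 3 in each), and here the groups overlapped, with 7.44% in si-NC replicate 1 and 8.22% in si-GPD1L replicate 2. Among the binding proteins other than Igfbp7, the shares of Igfbp3 (37.0% ± 0.840 and 36.0% ± 1.89) and Igfbp4 (14.7% ± 2.67 and 15.2% ± 1.31) differed between the groups by less than the spread between libraries. The TPM of Igf1 divided by the summed TPM of these binding proteins was 0.626 ± 0.0992 in si-NC and 0.605 ± 0.0618 in si-GPD1L (SD, n = 3 in each), a difference within the spread between libraries. Igf1 divided by Igf1r was 11.8 ± 2.90 in si-NC and 5.94 ± 1.33 in si-GPD1L, with 9.34 as the lowest and 7.47 as the highest ratio of the respective groups. No test was run on these shares and ratios.

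The deposited transcript table held 24 transcripts of these genes among 55760. Of these, 12 were lower at an adjusted p under 0.05 and none was higher, where 2.3% of the transcripts tested were lower. They were the 8 transcripts of Igf1 and the single transcripts of Igfbp3, Igfbp4, Igfbp5 and Igfbp6. The Igf1 transcripts, from 1530 to 6966 bases long, had log2 fold changes between -0.68 and -0.56, but they share most of their reads and are not independent. The shortest Igf1 model held 16.9% ± 1.06 of the Igf1 gene count in si-NC and 17.1% ± 0.509 in si-GPD1L (SD, n = 3 in each), a difference within the spread between libraries. For Igf1r, the short model of 4693 bases held 41.7% ± 2.08 and 43.7% ± 1.48 of the gene count in the respective groups, and the 3 transcripts had adjusted p-values from 0.129 to 0.140. The 6 transcripts of Igf2 had log2 fold changes between -0.059 and -0.049 and none was called.

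Other genes of the IGF pathway were taken from a list of 41 names, of which 35 were in the table and 29 were tested. Of these, 4 were higher and 2 lower in si-GPD1L, where 4.03% and 2.33% of all genes tested were, and their median log2 fold change was 0.079. Of the 7 proteases tested that cut binding proteins, 2 were higher and none was lower. Pappa, a metalloprotease that cuts Igfbp4 and Igfbp5, had 396, 477 and 598 counts in si-NC and 750, 871 and 742 in si-GPD1L (log2 fold change 0.67, standard error 0.12, adjusted p = 0.00642), without overlap of the groups. Adam12, which cuts Igfbp3 and Igfbp5, had 4682, 4958 and 5472 counts in si-NC and 7093, 7633 and 6579 in si-GPD1L (log2 fold change 0.48, standard error 0.086, adjusted p = 0.00527). Both calls held in each of the 13 alternatives run for these genes. Htra1, a secreted serine protease and the most abundant of the list's proteases at 634 TPM in si-NC, had a log2 fold change of 0.079 (adjusted p = 0.555).

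The stanniocalcins inhibit Pappa. Stc1 had 229, 223 and 233 counts in si-NC and 110, 178 and 179 in si-GPD1L (log2 fold change -0.58, standard error 0.14, adjusted p = 0.0327), while Stc2, the more abundant one at 33.1 TPM in si-NC, had a log2 fold change of 0.20 (adjusted p = 0.333). Ghr, the growth hormone receptor, which lies upstream of Igf1 in liver, fell by 0.38 in log2 units (standard error 0.087; adjusted p = 0.0219), and H19, the imprinted neighbour of Igf2, had a log2 fold change of -0.18 (adjusted p = 0.276). Downstream of Igf1r, Irs2, a docking protein of the receptor, rose by 0.38 in log2 units (standard error 0.099; adjusted p = 0.0445), a call lost in 6 of its alternatives, and it was 1 of 8 substrates and adaptors tested. Shc1, the most abundant of those, had a log2 fold change of 0.090 (adjusted p = 0.488), and the insulin receptor Insr one of 0.13 (adjusted p = 0.666).

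**Figure D5:**
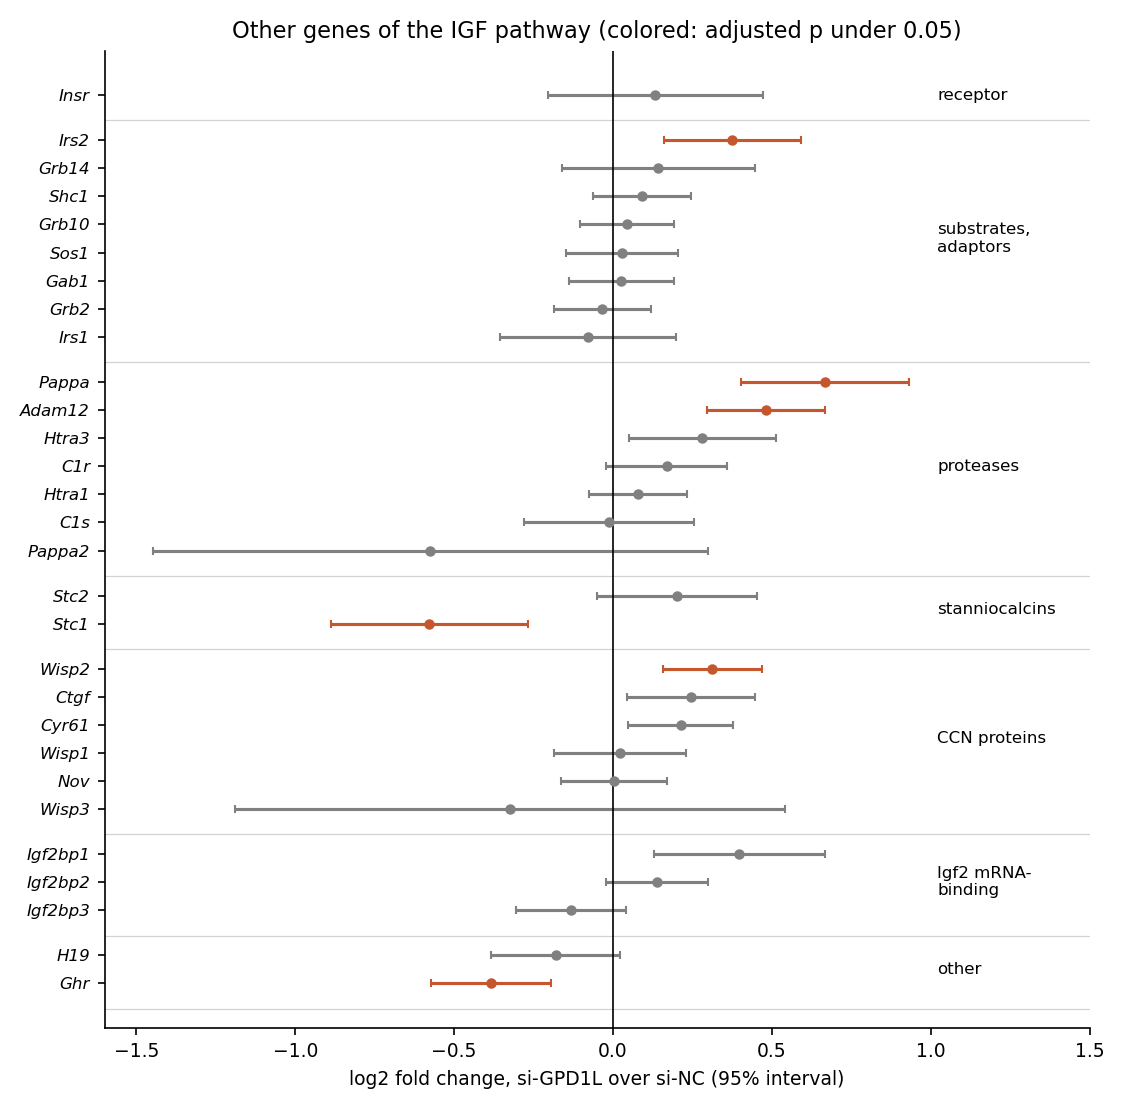
Log2 fold change in si-GPD1L over si-NC, with 95% intervals, of the 29 tested genes of the IGF pathway outside the 10 members, grouped by role and colored where the adjusted p was under 0.05. Pappa, Adam12, Irs2 and Wisp2 lie right of 0, and Stc1 and Ghr left of it.

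The CCN proteins carry a module like that of the IGF-binding proteins, and 1 of the 6 tested was called. Wisp2 rose by 0.31 in log2 units (standard error 0.072; adjusted p = 0.0242), and Ctgf, the most abundant of them at 2594 TPM in si-NC, had a log2 fold change of 0.25 (adjusted p = 0.139). None of the 3 genes whose products bind Igf2 mRNA was called, and Igf2bp2, the most abundant, had a log2 fold change of 0.14 (adjusted p = 0.292). Igfbp1, Igfbpl1 and Irs4 had 0 counts in all libraries, which allows up to 3 counts in a library, and Igfals, a partner of Igfbp3 in blood, had at most 1 count. The calls of Stc1, Wisp2, Ghr and Irs2 were lost when si-GPD1L replicate 1 or 2 was left out, with adjusted p-values from 0.103 to 0.204. Those of Stc1, Wisp2 and Irs2 were also lost without si-NC replicate 2, and those of Wisp2 and Irs2 without si-GPD1L replicate 3.

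Some markers of cell types also differed between the groups. Of the 12 fibroblast markers, Dcn, Lum and Fap fell, by 0.66, 0.77 and 0.82 on the log2 scale (adjusted p = 0.0129, 0.00580 and 7.53e-05), beside 0.64 for both Igf1 and Igfbp3. None of the 12 was called higher, and their median log2 fold change was -0.12. Col1a1 and Col1a2, chosen after their values were seen, had log2 fold changes of 0.25 (adjusted p = 0.219) and 0.21 (adjusted p = 0.137). For both, every si-GPD1L library lay above every si-NC library, while 29% of all genes tested did not overlap, without regard to direction. The other uncalled fibroblast markers had log2 fold changes below 0, from -0.26 in Col3a1 (adjusted p = 0.156) to -0.018 in Vim (adjusted p = 0.930). The summed fibroblast markers ran from 71370 to 87273 CPM for si-NC and from 81712 to 86285 for si-GPD1L. Of the 11 endothelial markers tested, 4 were higher, with a summed level of 109 to 133 CPM in si-NC that was 146 to 152 in si-GPD1L. Among the markers of smooth muscle and pericytes 2 of 8 were higher, although the median log2 fold change of that list was -0.10. Of the cardiomyocyte markers 1 of 10 was lower, with a median of -0.16. None was called of the 10 macrophage and 5 epicardial markers tested. Of all genes tested, 4.03% were called higher and 2.33% lower. The part of these cells and of the interferon-stimulated genes in the fall of Igf1 and the binding proteins was not tested.

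The genes whose pattern was most like that of Igfbp5 were sought among 11885 genes whose mean normalized count was 50 or more, by the root mean square difference over the 6 libraries of log2 normalized counts centred on the si-NC mean. Among the nearest were Adamts3 (difference 0.250), Smoc2 (0.266), Mr1 (0.285) and RGD1564664 (0.293). Adamts3, a procollagen N-proteinase, had 274, 395 and 443 normalized counts in si-NC and 184, 187 and 243 in si-GPD1L, with si-NC replicate 1 lowest and replicate 3 highest as for Igfbp5. Smoc2, a secreted matrix protein, had 129, 124 and 135 normalized counts in si-NC and 52.4, 71.0 and 76.9 in si-GPD1L. None of the other members compared was among the nearest 5 genes. Igfbp2, with means of 31.6 in si-NC and 34.5 in si-GPD1L, was below the minimum count and was not compared.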

How the data were processed

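Gene and transcript counts of the 3 si-NC and 3 si-GPD1L libraries were used. The authors deposited raw read counts per gene and per transcript, and TPM values, which equal the deposited counts over the gene length scaled to 1e+06 per library. The submitters' processing notes name HISAT2 2.1.0, HTSeq 0.12.4 and rn6, while the strand setting is not given in the sources used here. Transcript counts summed to more than gene counts, 40992579 to 49099497 per library. The deposited comparisons and enrichment tables hold the authors' own fold changes, p-values and terms and were not used.

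Genes were filtered by filterByExpr, normalized by TMM and compared with edgeR 4.0.16 (R 4.3.3) by its quasi-likelihood F test, tested first on simulated data, with Benjamini-Hochberg adjustment. The standard error is the size of the log2 fold change over the root of F. The exact permutation test used log2(normalized count + 0.5), with scipy 1.17.1. Within groups, libraries differed beyond sampling noise (chi-square per degree of freedom 3.89 to 27.4). Over all genes tested, same-numbered libraries did not deviate together (correlations -0.016 to 0.044), so no block was used in the main fit. In normalized counts, Igf2r, Igfbp2, Igfbp4 and Igfbp5 were each lowest in replicate 1 and highest in replicate 3 of both groups. The other members were not, and Igf1r had opposite orders.

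Alternatives were DESeq2 size factors, upper-quartile normalization, DESeq2 1.42.0, edgeR's exact test, 2 other count filters, other thresholds, the transcript table, the replicate number as a block and each library left out. The members and gene lists were chosen with earlier results of these data known. Named genes were the members, Gpd1l, pathway genes at an adjusted p under 0.05 or the most abundant of their role, up to 3 called markers per list and the 5 genes most like Igfbp5, of which 1 is not reported here; called markers of lists no result turns on are given as counts only.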

Additional observations from a re-analysis of the deposited data

How the results depend on the processing

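The 5 calls among the members were the same 5 genes under DESeq2 size factors, upper-quartile normalization, DESeq2's Wald test, edgeR's exact test, the filter of 10 or more counts in each library and the replicate block, and with no filter beyond 1 count Igf1r was added as a sixth. With the replicate block, 5 members, 1 member past both thresholds, 5 pathway genes and 12 transcripts were called. Among the members and pathway genes named with a test, the block changed the call of Irs2 alone (adjusted p = 0.0549). The block lowered the adjusted p of Igfbp5 to 2.35e-05, of Igf1 to 0.000614 and of Igfbp4 to 0.00131. It raised that of Igfbp3 to 0.000606 and that of Igfbp6 to 0.0184. At an adjusted p under 0.01, 3 members were called. With 1 library left out, 2 to 5 members were called in either direction. Without si-NC replicate 3, 4 were lower, with the call of Igfbp4 lost, and Igf1r was higher. The number was 3 without si-NC replicate 2 and 2 when si-GPD1L replicate 1 or 2 was missing. In the fits without si-GPD1L replicate 1 or 2, 0.442% and 0.351% of all genes tested were called lower instead of 2.33%. Over all fits with 1 library left out, members past both thresholds numbered 0 to 1, called pathway genes 2 to 9 and called transcripts 2 to 15. Called pathway genes and transcripts numbered 2 each without si-GPD1L replicate 1 or 2, and pathway genes numbered 3 without si-NC replicate 2. Signs changed for uncalled members: Igf2 ran from -0.11 to 0.078 on the log2 scale (0.078 without si-NC replicate 3 and 0.028 with si-GPD1L replicate 2 left out), Igf2r from -0.14 to 0.13 (-0.14 without si-NC replicate 1, -0.0098 and -0.018 with si-GPD1L replicates 2 and 3 left out, and -0.018 with upper-quartile normalization) and Igfbp2 from -0.28 to 0.40 (-0.28 without si-GPD1L replicate 3). Leaving out a library also leaves fewer samples, and the causes were not tested.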

Other observations

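Single libraries ranked alike for many of the members. In si-NC, replicate 3 had the highest normalized count for 7 of the 10 genes and replicate 1 the lowest for 6. In si-GPD1L, replicate 3 had the highest for 8. Igfbp5 in si-NC replicate 1 deviated by -30.8% from its group mean and in replicate 3 by 25.8%, while Igfbp6 deviated by 8.78% in replicate 1 and by -17.5% in replicate 3.

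Other genes of the deposited table overlap 4 of the members. LOC103692786, a non-coding RNA on the strand opposite to Igfbp7, was chosen after its values were seen. It had 140, 180 and 241 counts in si-NC and 404, 386 and 370 in si-GPD1L, with no overlap between the groups. In normalized counts, 29% of all genes tested did not overlap, without regard to direction. Mas1l, opposite to Igf2r, had counts of 194 to 277 for si-NC and of 246 to 307 for si-GPD1L. These overlaps are of whole gene spans, introns included, and whether exons overlap was not examined. Without a stated strand setting, it is therefore not known whether pairs on opposite strands share counted reads. Cttn and Mir483 lie on the same strand as Igf2, where a strand setting would not separate them. None of the table's other genes overlaps Igf1, Igf1r, Igfbp2, Igfbp3, Igfbp4 or Igfbp5.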
